A study of Mus musculus with 2 samples.

Results

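The 9 genes described here encode acute phase proteins and proteins with a whey acidic protein (WAP) domain: Lcn2, Lrg1, Saa3, Hp and Cp in the first set, and Slpi, Wfdc2, Wfdc17 and Wfdc21 in the second. They were picked by symbol, with measured values from these same lungs known, and they are 9 of the 32285 genes in the matrices. Their levels are therefore a description and carry no test. All 9 were found, each had UMIs in the kept cells, and all 9 had at least 50 counts over both libraries.

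The data are single-cell RNA counts (10x Genomics 3′ chemistry, which counts unique molecular identifiers, UMIs) from collagenase digests of whole lung. The first group was 1 library titled injured, and the second was 1 library titled control. Every mouse was of strain C57BL/6 and carried the SP-C I73T mutation, a change in surfactant protein C, which alveolar type 2 (AT2) cells make; the control library is thus mutant lung too. Per the labels, a single gavage of tamoxifen at 175 mg/kg in corn oil removes a neomycin cassette and raises the mutant protein, and the times studied were steady state and 14 days after injury. The treatment tags run against the titles: the library titled injured is tagged untreated and the library titled control is tagged tamoxifen treated. The titles were used for the grouping, and every direction below rests on them. Lungs were lavaged and perfused before digestion, which can remove free cells of the airspaces and the blood. The number of mice per library is not stated. With 1 library per group no difference has a replicate check, and no p-value is given.

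After filters, 2302 cells of the injured library and 2298 cells of the control library were kept, with a median of 3269 and 4506 UMIs per cell, and 1 barcode was shared between the libraries. Cells were clustered without the 9 genes and their related lists, and clusters were named from marker genes. Every class name below means cells that resemble that type by markers. In 5 of the 6 classes compared all markers were detected in both libraries. In the endothelial class Dkk2 was at 0 in both libraries and Ptgis was at 0 in the injured library.

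In acute inflammation, cytokines of the interleukin-6 and interleukin-1 families act through STAT3, NF-kappaB and C/EBP factors to raise the output of plasma proteins, chiefly by hepatocytes, and epithelium and leukocytes make several of them locally. LCN2 binds bacterial siderophores and so withholds iron; haptoglobin, from Hp, binds free haemoglobin; ceruloplasmin, from Cp, carries copper and oxidises iron; SAA3 is a serum amyloid A made outside the liver; and LRG1 is a secreted leucine-rich repeat glycoprotein that binds the TGF-beta co-receptor endoglin. SLPI inhibits neutrophil elastase and cathepsin G, and WFDC2 is a secreted WAP protein of airway epithelium. Wfdc17 and Wfdc21 encode further small WAP proteins in the mouse.

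The promoters of Lcn2, Saa3 and Lrg1, the acute phase genes that the class results below turn on, are shown because C/EBP, STAT and NF-kappaB factors are the known inducers of this group. Each runs 5′ to 3′ from 250 bases before to 50 after the gene's start, from RefSeq on GRCm38.p6, all on the minus strand, and capitals mark a match to the C/EBP-type motif.
Lcn2: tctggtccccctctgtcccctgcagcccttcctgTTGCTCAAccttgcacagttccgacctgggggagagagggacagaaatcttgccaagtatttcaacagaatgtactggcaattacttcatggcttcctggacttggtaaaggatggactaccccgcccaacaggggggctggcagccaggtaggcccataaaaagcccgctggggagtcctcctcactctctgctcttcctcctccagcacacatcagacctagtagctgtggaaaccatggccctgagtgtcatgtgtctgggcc
Saa3: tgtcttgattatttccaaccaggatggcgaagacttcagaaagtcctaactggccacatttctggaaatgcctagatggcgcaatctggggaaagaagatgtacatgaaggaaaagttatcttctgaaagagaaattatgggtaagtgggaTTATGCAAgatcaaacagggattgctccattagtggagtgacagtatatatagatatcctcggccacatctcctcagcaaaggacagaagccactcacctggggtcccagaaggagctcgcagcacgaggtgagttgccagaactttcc
Lrg1: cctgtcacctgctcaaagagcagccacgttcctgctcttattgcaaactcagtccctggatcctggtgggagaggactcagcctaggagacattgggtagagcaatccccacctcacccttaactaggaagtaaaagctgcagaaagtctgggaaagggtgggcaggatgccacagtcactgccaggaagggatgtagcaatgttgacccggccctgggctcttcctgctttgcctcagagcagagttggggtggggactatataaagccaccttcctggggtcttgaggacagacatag
These lie at chr2:32387690-32387989 for Lcn2, chr7:46715627-46715926 for Saa3 and chr17:56121897-56122196 for Lrg1. The motif searched was TTGCNNAA on both strands, which 10.8% of all 32851 promoters hold. Of the 7 members with a promoter on record, 4 held it at 1 or more start sites, which were Lcn2, Saa3, Cp and Slpi. Cp and Wfdc2 had 2 start sites each, and Cp held the motif at 1 of them. The 10.8% counts promoters and the 4 of 7 counts genes, so they are unlike measures. The motif began 216 bases before the start of Lcn2 and 99 bases before that of Saa3. The letters TTCNNNGAA (STAT-type, 8.3% of promoters) and GGGNNTTCC (NF-kappaB-type, 5.82%) were in no window of these 7 genes. Other or longer spellings of these motifs were not searched, so the lack of a match does not show that such a site is absent. A match is a run of letters and not a site of binding. In the annotation of the same build (GRCm38), the 4 WAP genes lie in pairs: Slpi and Wfdc2 are 173.3 kb apart on chromosome 2, and Wfdc17 and Wfdc21 are 40.7 kb apart on chromosome 11. Cp overlaps Hps3 on the opposite strand, and whether the counting used strand is not given in the sources used here.

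Over all kept cells, 7 of the 9 genes were at least 1.5-fold higher in the injured library and none was 1.5-fold lower. Of the 13102 genes with 50 counts or more, 19.3% were that much higher and 14.2% that much lower. Levels are UMI counts scaled to a class or library total of 1000000 (CPM), and ratios are injured over control with 95% intervals that cover counting error only. Lrg1 was at 173.4 CPM in the injured library and 29.3 CPM in the control one, a ratio of 5.93 (5.38 to 6.54). Wfdc17 was at 737.2 and 156.0 CPM, a ratio of 4.73 (4.53 to 4.93), and Lcn2 at 135.8 and 35.6 CPM, a ratio of 3.81 (3.48 to 4.18). Saa3 had 1431 counts in the injured library against 1 in the control library, a ratio of 1154 with an interval of 206.9 to 45630. Cp, Wfdc21 and Wfdc2 were 4.68-fold, 2.78-fold and 1.63-fold higher. Hp, at 315.6 and 212.7 CPM, and Slpi, at 464.9 and 358.5 CPM, had ratios of 1.48 and 1.3, under the 1.5-fold rule. With each cell given the same weight, the log2 ratio of Cp over all cells was 0.25 in place of 2.23 and that of Wfdc2 was 0.15 in place of 0.71.

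These sums mix levels per cell with which cells were caught. Neutrophils were 585 of the injured cells and 125 of the control cells, C1q macrophages 352 and 9, endothelial cells 92 and 391, and B cells 58 and 317. Neutrophils held 49.8% of the Lcn2 counts of the injured library and 76.6% of those of the control library, and airway secretory cells held 26.1% of the injured counts. Of Wfdc21, alveolar macrophages held 68.2% in the injured library and 81.6% in the control library. Of Wfdc17, alveolar macrophages held 42.4% and 22.0%, and monocytes 3.37% and 41.2%. Of Slpi, alveolar macrophages held 16.2% and 63.7%, while mesothelial cells held 40.2% of the injured counts. The stacked bars of where each gene's counts came from show these shares for all 9 genes.

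**Figure D1:**
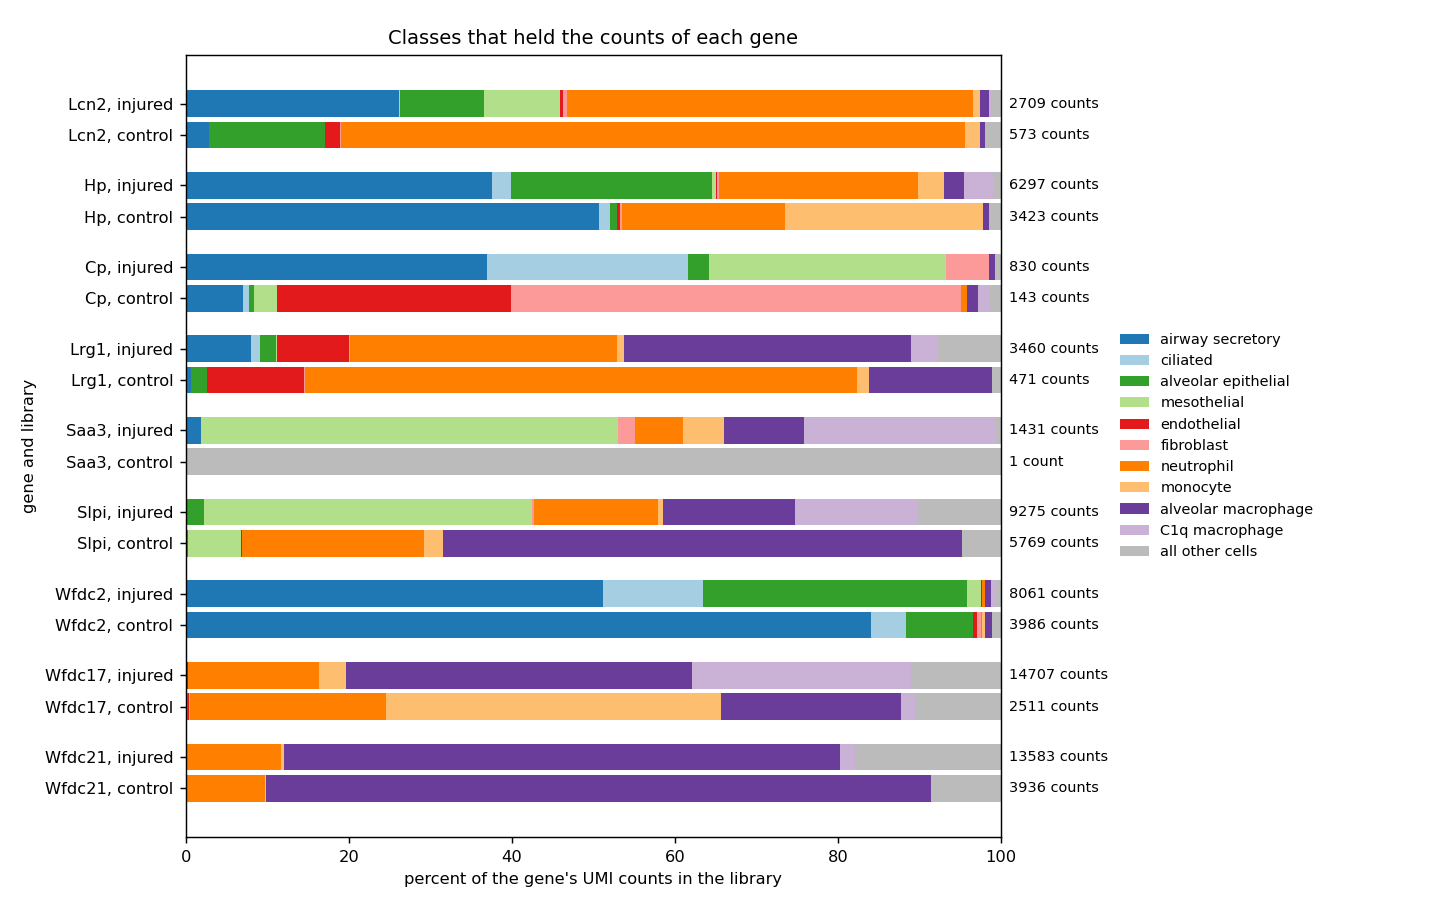
Percent of each gene's UMI counts (x axis) that came from each class (colours), with the injured library in the upper bar of each pair and the control library in the lower bar, and total counts at the right. Wfdc21 counts came mostly from alveolar macrophages in both libraries (68.2% and 81.6%), while mesothelial cells held 51.1% of the injured Saa3 counts.

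**Figure D2:**
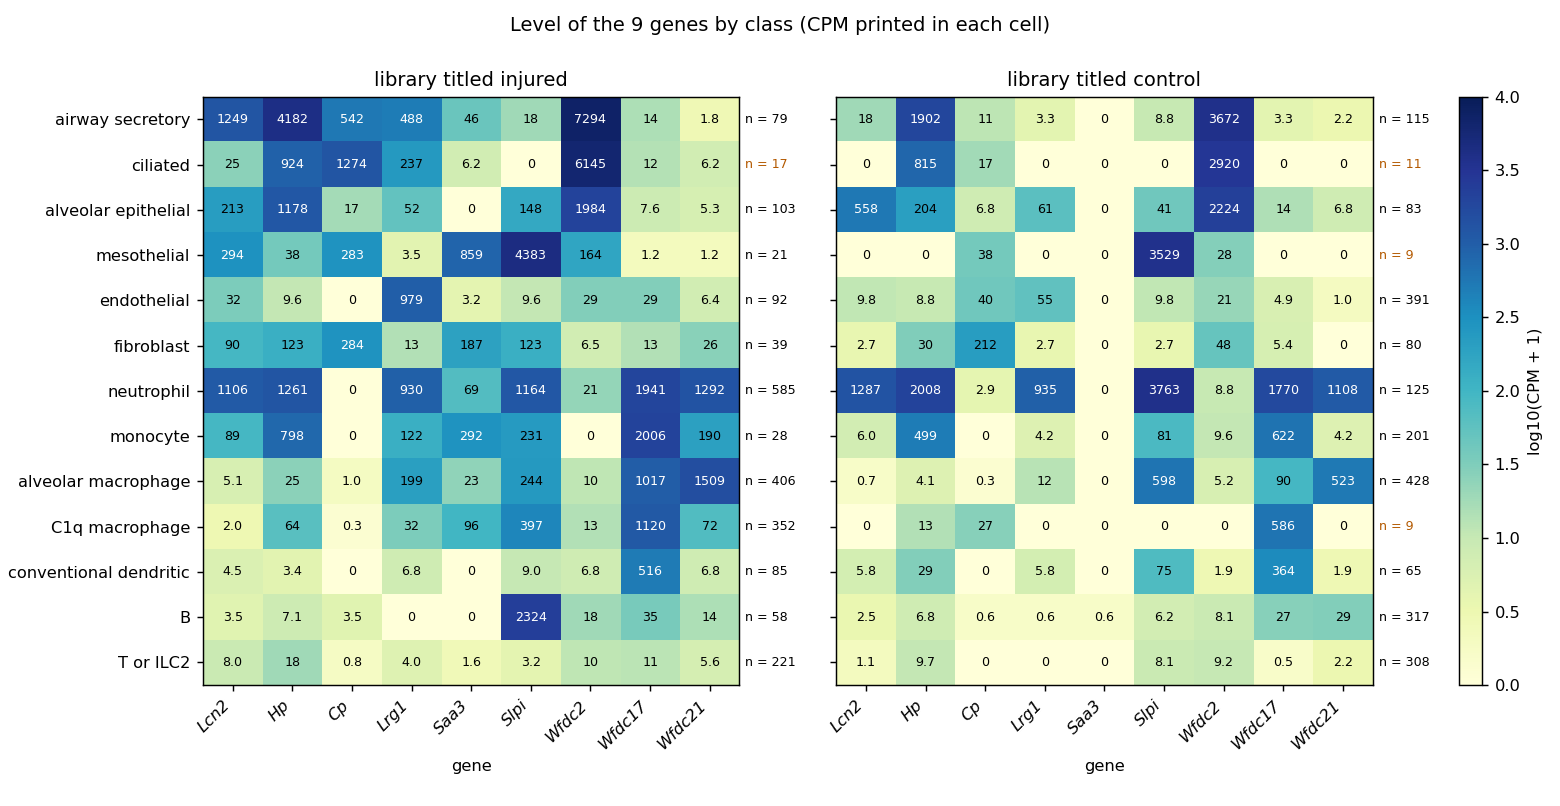
Level of each of the 9 genes (columns) by class (rows) in the injured library (left panel) and the control library (right panel), with CPM printed in each box, colour for log10(CPM + 1), cell numbers at the right of each row, and numbers in orange for classes with under 20 cells. Wfdc2 was at 7294 CPM in injured and 3672 CPM in control airway secretory cells, while the injured B cell level of Slpi (2324 CPM) comes almost wholly from 1 cell.

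Lymphocytes were taken as a measure of free RNA, which gives UMIs in cells that do not express a gene. In T cells or group 2 innate lymphoid cells (ILC2), no member was above 17.6 CPM in the injured library or 9.73 CPM in the control library, and both of those values belong to Hp. In B cells Wfdc17 was at 35.3 CPM in the injured library and 26.7 CPM in the control library. The B cell level of Slpi in the injured library, 2324 CPM, came from 1 cell that held 655 of its 658 counts.

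Airway secretory cells, which make secretoglobins and line the conducting airways, had far higher Lcn2, Lrg1 and Cp in the injured library. All 5 members with 50 counts or more there were at least 1.5-fold higher in the injured library, where 30.6% of 1341 genes were that much higher and 9.69% that much lower. Lcn2 was at 1249 CPM in 79 injured secretory cells and 17.6 CPM in 115 control secretory cells, a ratio of 71.2 (43.5 to 125). Lrg1 was at 487.6 CPM, from 276 counts, in injured cells and 3.29 CPM, from 3 counts, in control cells, a ratio of 148 (50.2 to 723). Cp was at 542.4 CPM in injured cells and 11 CPM in control cells, a ratio of 49.5 (26.5 to 104). These 3 genes thus had few counts in control secretory cells. Wfdc2 differed far less, at 7294 and 3672 CPM, a ratio of 1.99 (1.90 to 2.08). Hp was at 4182 and 1902 CPM, a ratio of 2.20 (2.07 to 2.34). Saa3 had 26 counts in injured and 0 in control secretory cells, below the count minimum, and Slpi had 10 and 8.

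A few deep cells weighed heavily in those sums. Of the injured secretory counts, 1 cell held 44.1% for Lcn2, 45.3% for Lrg1, 33.6% for Cp and 27.6% for Hp. With each cell given the same weight the log2 ratios were 4.13 for Lcn2, 5.11 for Lrg1 and 2.73 for Cp, against 6.15, 7.21 and 5.63 in the sums, so these 3 were past the rule either way. The log2 ratio of Hp was 0.10 with equal weights, under the rule, against 1.14 in the sum. With each cell thinned to 1000 UMIs, Lcn2 was seen in 39.7% of 63 injured cells (exact 95% interval 27.6 to 52.8) and 0% of 112 control cells (upper bound 3.24). Without thinning, Lcn2 was seen in 54.4% of injured cells, whose median depth was 2415 UMIs, and 9.57% of control cells, whose median depth was 5469 UMIs. Cp was seen in 19% of injured and 4.46% of control cells after thinning. Lrg1 was seen in 6.35% of injured cells (1.76 to 15.5) and 0.893% of control cells (0.0226 to 4.87) after thinning, intervals that overlap, and in 21.5% and 2.61% without it, so most injured secretory cells had no Lrg1 UMI. Hp was seen in 49.2% of injured and 68.8% of control cells, which runs against its CPM, so no order is read for Hp. No thinned B cell or T cell of either library had an Lcn2 or Cp UMI.

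Secretory cells with UMIs of several acute phase genes made up a larger share in the injured library than in the control one. After thinning, 30.2% of injured and 4.46% of control secretory cells had UMIs of 2 or more of the 5 acute phase members. For 3 or more the shares were 11.1% and 0%. For 1 or more they were 73.0% and 69.6%. Among neutrophils the share with 2 or more was higher, at 49.0% of injured and 58.9% of control cells. Whether the genes met in the same cell beyond their separate shares was not tested. Neutrophil markers summed to 570.6 CPM in injured and 39.5 CPM in control secretory cells. Injured secretory cells had 707 Lcn2 counts and 14 counts of the neutrophil gene S100a8, and injured neutrophils had 1350 and 52360. The part of neutrophil RNA in these values was not tested. Scgb1a1 alone took 445788 CPM of the injured class and 582992 CPM of the control class.

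Other acute phase genes were also higher in injured secretory cells. All 5 genes of a list of other acute phase proteins with enough counts were past the rule and higher in the injured library, with a median log2 ratio of 2.46 against 0.16 over all genes in the class. Orm1 (orosomucoid) had 64 counts in injured and 0 in control cells, at least 34.4-fold higher with 3 counts as the floor per library. C3 (complement), Mt1 (metallothionein), Trf (transferrin) and the LPS co-receptor gene Cd14 were 7.93-fold, 5.51-fold, 4.86-fold and 2.89-fold higher. Ltf, which encodes the iron-binding protein lactoferrin of secretions and neutrophil granules, was at 708.4 and 24.1 CPM, a ratio of 29.4 (19.1 to 47.4). Of the 4 inducing factors with enough counts, Cebpd was 3.95-fold and Nfkbia 2.84-fold higher, Cebpb was 1.61-fold lower and Cebpa had a ratio of 1.06.

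**Figure D3:**
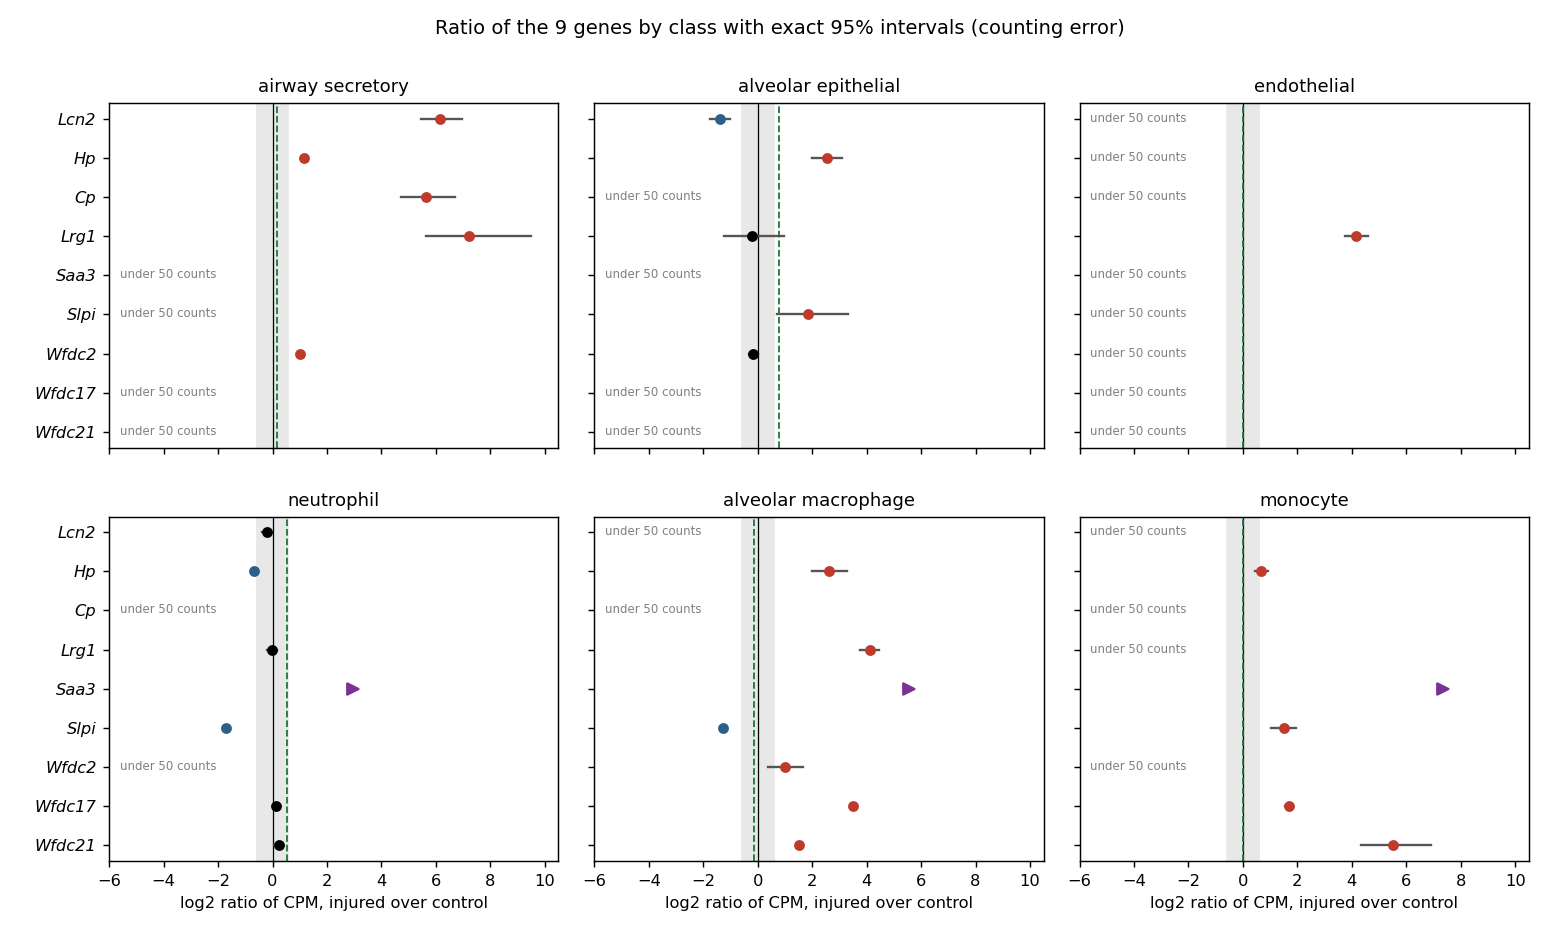
Log2 ratio of CPM, injured over control (x axis), for each gene in the 6 classes compared, with bars for exact 95% intervals of counting error, grey bands for ratios under 1.5-fold, green dashed lines for the median gene of the class, and triangles for lower bounds where control had 0 counts; points are red where higher, blue where lower and black between. Lcn2 (6.15), Lrg1 (7.21) and Cp (5.63) in airway secretory cells and Lrg1 (4.15) in endothelial cells lie far to the right, while Slpi lies to the left in neutrophils (-1.69) and alveolar macrophages (-1.29).

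The alveolar epithelial class joined a cluster with alveolar type 1 (AT1) markers, which held 84 injured and 20 control cells, and one with AT2 markers, which held 19 and 63. The make-up of the class thus differed between libraries, as did its depth, with a median of 7556 UMIs in injured and 1218 in control cells. Of the 5 members with enough counts, 2 were higher and 1 lower, where 55.7% of 4727 genes were higher and 11.9% lower. The median gene was itself 0.72 higher on the log2 scale over the 4595 genes used for scaling, and 0.76 higher over all 4727. Log2 ratios relative to the median gene, here and below, use the genes used for scaling.

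Lcn2 was at 213.4 CPM in the injured class and 557.7 CPM in the control class, 2.61-fold lower (2.02 to 3.35), but neither cluster went that way. In the AT2-marked cluster it was at 2462 CPM in 19 injured cells and 883.4 CPM in 63 control cells. In the AT1-marked cluster it had 178 counts in injured and 0 in control cells, at least 2.52-fold higher with the floor of 3 counts. The median depth of that cluster was 13490 UMIs in injured and 929 in control cells. Its log2 ratio in the class was 0.02 with equal cell weights and 1.0 with a mitochondrial limit of 10%, so no direction is read for Lcn2 over the class. Lrg1 was at 52.4 and 61.2 CPM in the class, a ratio of 0.856 (0.426 to 1.95), and at 764.9 and 97.0 CPM in the AT2-marked cluster, from 32 and 9 counts. Hp was at 1178 CPM in injured and 204.0 CPM in control cells of the class, a ratio of 5.77 (4.03 to 8.58). In the AT1-marked cluster Hp was at 1213 and 18.45 CPM, from 1547 counts in 84 injured cells and 1 in 20 control cells. In the AT2-marked cluster it was at 95.6 and 312.4 CPM. The log2 ratio of Hp in the class turned to -1.02 with the mitochondrial limit of 10%. Slpi was at 148.1 and 40.8 CPM, a ratio of 3.63 (1.64 to 10.0), and its log2 ratio relative to the median gene was 1.14. Wfdc2, at 1984 and 2224 CPM, was under the rule in the class, and relative to the median gene its log2 ratio was -0.89. Its clusters went opposite ways: it was at 1986 CPM in injured and 608.8 CPM in control cells of the AT1-marked cluster, a ratio of 3.26 (2.32 to 4.75), and at 1936 and 3167 CPM in the AT2-marked one.

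Lrg1 was higher in injured endothelial cells, and the other 8 genes had too few counts there for the rule. Lrg1 was at 979.2 CPM in 92 injured endothelial cells and 55.0 CPM in 391 control endothelial cells, a ratio of 17.8 (13.4 to 24.1). It was the only member there with 50 counts or more, and it was higher, where 16.4% of 4581 genes were higher and 16.7% lower. The gap was present in both capillary clusters. In the aerocyte-like cluster Lrg1 was at 512.5 and 46.6 CPM, a ratio of 11 (6.59 to 19.2), and in the general capillary-like cluster at 1419 and 60.6 CPM, a ratio of 23.4 (16.5 to 34.1).

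After thinning, Lrg1 was seen in 50% of 58 injured endothelial cells (36.6 to 63.4) and 2.56% of 234 control cells (0.947 to 5.50). Without thinning the share was 58.7% in injured cells, of median depth 1430 UMIs, and 4.86% in control cells, of median depth 1248 UMIs. The matching thinned share in T cells or ILC2 was 0.453% in the injured library and 0% in the control library, and the share in injured endothelial cells lay above it. The 1 cell with the most Lrg1 UMIs held 26.4% of the injured counts, and without the top cell of each library the log2 ratio was 4.37 against 4.15. Below the count minimum, Cp had 0 counts in injured and 41 in control endothelial cells, at least 4.21-fold lower with the floor of 3 counts, and Lcn2 had 10 in each, a ratio of 3.25 (1.21 to 8.69).

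Endoglin (Eng) and ALK1 (Acvrl1), the TGF-beta family receptors through which LRG1 is known to act on vessels, were under the rule in the same cells. Eng was at 701.7 CPM in injured and 933.0 CPM in control cells, and Acvrl1 had a ratio of 0.698. Over all cells both were lower in the injured library, 4.46-fold for Eng and 3.88-fold for Acvrl1, where 92 injured and 391 control endothelial cells were caught. Of 11 inducing cytokines, receptors and factors with enough counts in endothelial cells, 3 were higher and 1 lower. Osmr (the oncostatin M receptor) was 3.69-fold higher, Stat3 2.50-fold higher and Il6st (gp130) 1.65-fold higher in injured endothelial cells, while Irf1 was at 98.9 and 199.4 CPM, 2.02-fold lower, and Socs3 had a ratio of 0.686.

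Neutrophils had lower Slpi and Hp in the injured library, while the other members measured there were close or rested on 1 cell. Of the 7 with enough counts, 1 was higher and 2 lower, where 47.2% of 3982 genes were higher and 10.0% lower. The median gene was 0.52 higher on the log2 scale over the 3958 genes used for scaling, and 0.53 higher over all 3982. Slpi was at 1164 CPM in 585 injured neutrophils and 3763 CPM in 125 control neutrophils, 3.23-fold lower (3.0 to 3.49). Hp was at 1261 and 2008 CPM, 1.59-fold lower (1.45 to 1.74). Lcn2, at 1106 and 1287 CPM, and Lrg1, at 930.2 and 935.0 CPM, were under the rule, as were Wfdc17 and Wfdc21 with ratios of 1.10 and 1.17. Relative to the median gene, the log2 ratios of these 4 were -0.74, -0.53, -0.39 and -0.30. Saa3, with 84 counts in injured and 0 in control neutrophils, was at least 7.83-fold higher, but 1 cell held 67 of the 84 counts.

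The neutrophil difference followed 2 clusters. Cluster 0 held 427 injured and 6 control neutrophils, and cluster 7 held 158 and 119. Within the injured library, Slpi was at 220.0 CPM in cluster 0 and 3256 CPM in cluster 7, 14.8-fold lower in cluster 0 (12.7 to 17.4). Wfdc21, Lcn2, Wfdc17, Hp and Lrg1 were lower in cluster 0 too, by 5.71-fold, 3.51-fold, 3.36-fold, 1.59-fold and 1.47-fold. Cells of cluster 7, present in both libraries, gave a different picture from the class as a whole. There Lcn2 was at 2180 CPM in injured and 1383 CPM in control cells, Wfdc17 at 3762 and 1892 CPM, and Wfdc21 at 2995 and 1191 CPM, ratios of 1.58, 1.99 and 2.52. Slpi, at 3256 and 4048 CPM, and Hp, at 1695 and 2160 CPM, had ratios of 0.804 and 0.785 in cluster 7. The plot of levels by cluster shows this order.

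**Figure D4:**
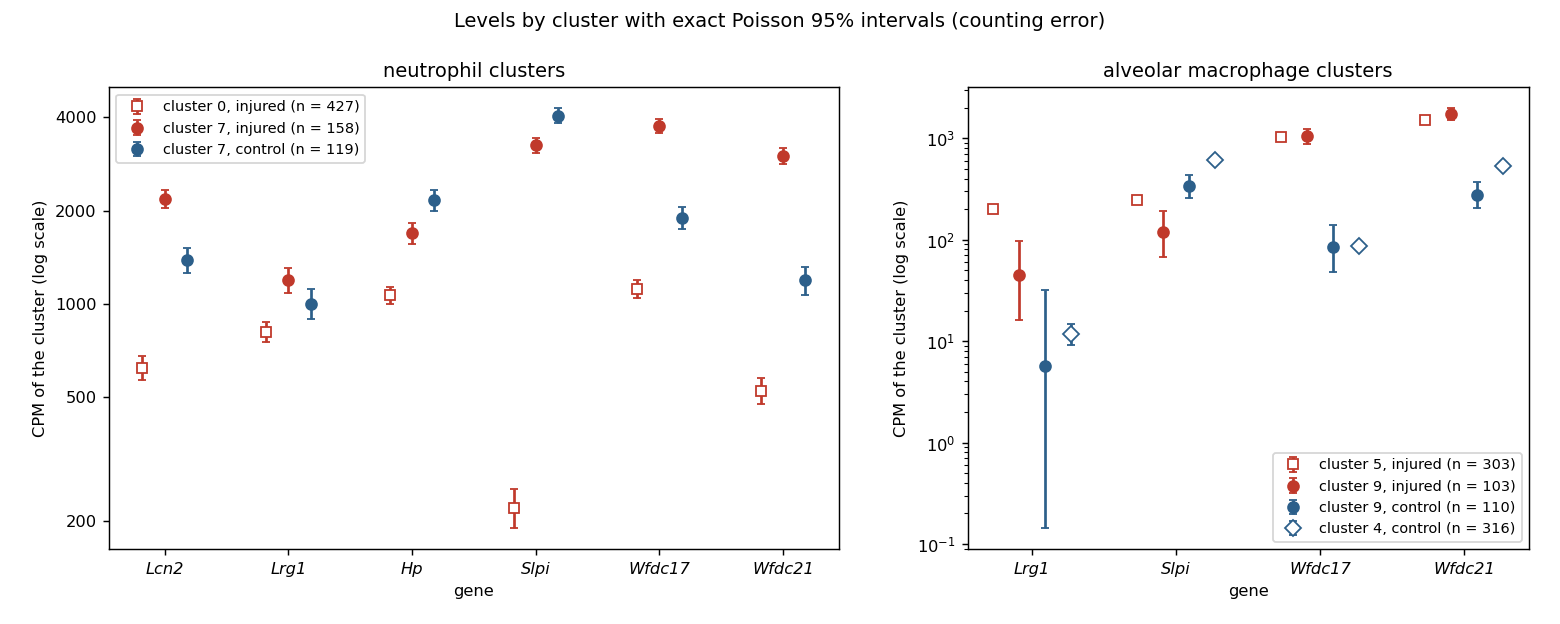
Level of the genes (CPM of the cluster, log axis) in neutrophil clusters 0 and 7 (left panel) and alveolar macrophage clusters 5, 9 and 4 (right panel), with bars for exact Poisson 95% intervals, injured in red and control in blue. Slpi in cluster 0 was at 220.0 CPM against 3256 CPM in cluster 7 of the injured library, and Wfdc17 in cluster 9 was at 1051 CPM in injured and 85.0 CPM in control cells.

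The share of cells followed the levels for Slpi, which had a UMI in 33.3% of injured and 83.9% of control neutrophils after thinning, and in 40% and 86.4% before it. The median injured neutrophil had 2074 UMIs and the median control neutrophil 2687. Elane, which encodes the elastase that SLPI inhibits, had 0 counts in both libraries, and Ctsg, for cathepsin G, had 2 in injured and 6 in control cells. Of 7 neutrophil granule and protease genes with enough counts in neutrophils, 2 were higher and 3 lower, with a median log2 ratio of -0.35 against 0.53 over all genes. Cd177 was at 352.4 CPM in injured and 11.7 CPM in control neutrophils, and Ngp at 165.5 and 8.79 CPM. Lyz2 (lysozyme), Chil1 and Mmp9 (gelatinase) were 3.68-fold, 2.09-fold and 1.67-fold lower. Of the stefins, cysteine protease inhibitors with near-identical copies, Stfa1 was 3.05-fold higher in injured neutrophils, and Stfa2 had 137 counts against 0.

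Alveolar macrophages, resident phagocytes that clear surfactant, showed higher Wfdc17, Wfdc21 and Lrg1 and lower Slpi in the injured library. Of 7 members with enough counts, 6 were higher and 1 lower, where 10.6% of 9340 genes were higher and 19.6% lower. Lrg1 was at 198.8 CPM in 406 injured and 11.6 CPM in 428 control macrophages, a ratio of 17.2 (13.5 to 22.2). Wfdc17 was at 1017 and 90 CPM, and Wfdc21 at 1509 and 522.6 CPM, a ratio of 2.89 (2.77 to 3.01). Slpi was at 244.3 and 597.7 CPM, 2.45-fold lower (2.30 to 2.6). Saa3 had 141 counts in injured and 0 in control macrophages, at least 47.1-fold higher. Its injured level was low, at 22.98 CPM, and all of its counts lay in the top 41 of the 406 cells. The median gene was 0.14 lower on the log2 scale, and relative to it the log2 ratios were 3.64 for Wfdc17, 4.24 for Lrg1, 1.67 for Wfdc21 and -1.15 for Slpi.

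Hp and Wfdc2, also called higher, were at low levels too, near that of free RNA in at least 1 lymphocyte class. Hp was at 24.8 CPM in injured and 4.07 CPM in control macrophages, against 17.6 and 9.73 CPM in T cells or ILC2. In B cells Hp was at 7.07 and 6.83 CPM, so its gap to free RNA depends on the class used. Wfdc2 was at 10.4 and 5.21 CPM, against 17.7 and 8.07 CPM in B cells and 10.4 and 9.19 CPM in T cells or ILC2. Neutrophil markers summed to 583.4 CPM in injured and 117.0 CPM in control macrophages, and their part in these values was not tested.

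Most injured macrophages (303) fell in cluster 5, which held 2 control cells, and most control macrophages (316) in cluster 4, which held no injured cell. Cluster 9 held both, with 103 injured and 110 control cells of low depth. Within it, Wfdc17 was at 1051 CPM in injured and 85.0 CPM in control cells, a ratio of 12.4 (7.25 to 22.7). Wfdc21 was at 1731 and 277.6 CPM, a ratio of 6.24 (4.57 to 8.67), and Slpi at 118.4 and 334.2 CPM, a ratio of 0.354. For these genes the directions in cluster 9 were those of the whole class. Lrg1 had 6 counts in injured and 1 in control cells of cluster 9, with overlapping intervals. Within the named class, the Lrg1 difference thus rests on clusters 5 and 4, which share few or no cells between libraries. A proliferating cluster with alveolar macrophage markers, left unnamed and held by both libraries, is given under other observations. After thinning, Wfdc17 was seen in 50.3% of injured and 5.93% of control macrophages and Wfdc21 in 69.4% and 28.8%, while Slpi was seen in 11.8% and 32.9%. Without thinning, Wfdc17 was seen in 80.8% and 39.5% of cells that held a median of 13946 UMIs in injured and 15890 in control macrophages. In B cells the thinned share of Wfdc17 was 1.72% for injured and 2.55% for control.

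Of 14 iron and copper genes with enough counts in macrophages, 5 were higher and 2 lower in the injured library. Hmox1, for haem oxygenase, which breaks down the haem that haptoglobin complexes deliver, was 9.95-fold higher. Slc40a1 and Slc31a1, also of the iron and copper list, were 3.32-fold and 1.92-fold higher. Tfrc, the transferrin receptor, and Ncoa4, which directs ferritin to lysosomes, were 2.10-fold and 1.69-fold lower. Timp1, a metalloprotease inhibitor, had 270 counts in injured and 1 in control macrophages, a ratio of 270.4 with an interval of 48.1 to 10718. Of the list of other acute phase proteins, 5 of the 8 with enough counts were higher and 1, C3, was lower. C4b (complement), of the same list, was 35.5-fold higher.

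**Figure D5:**
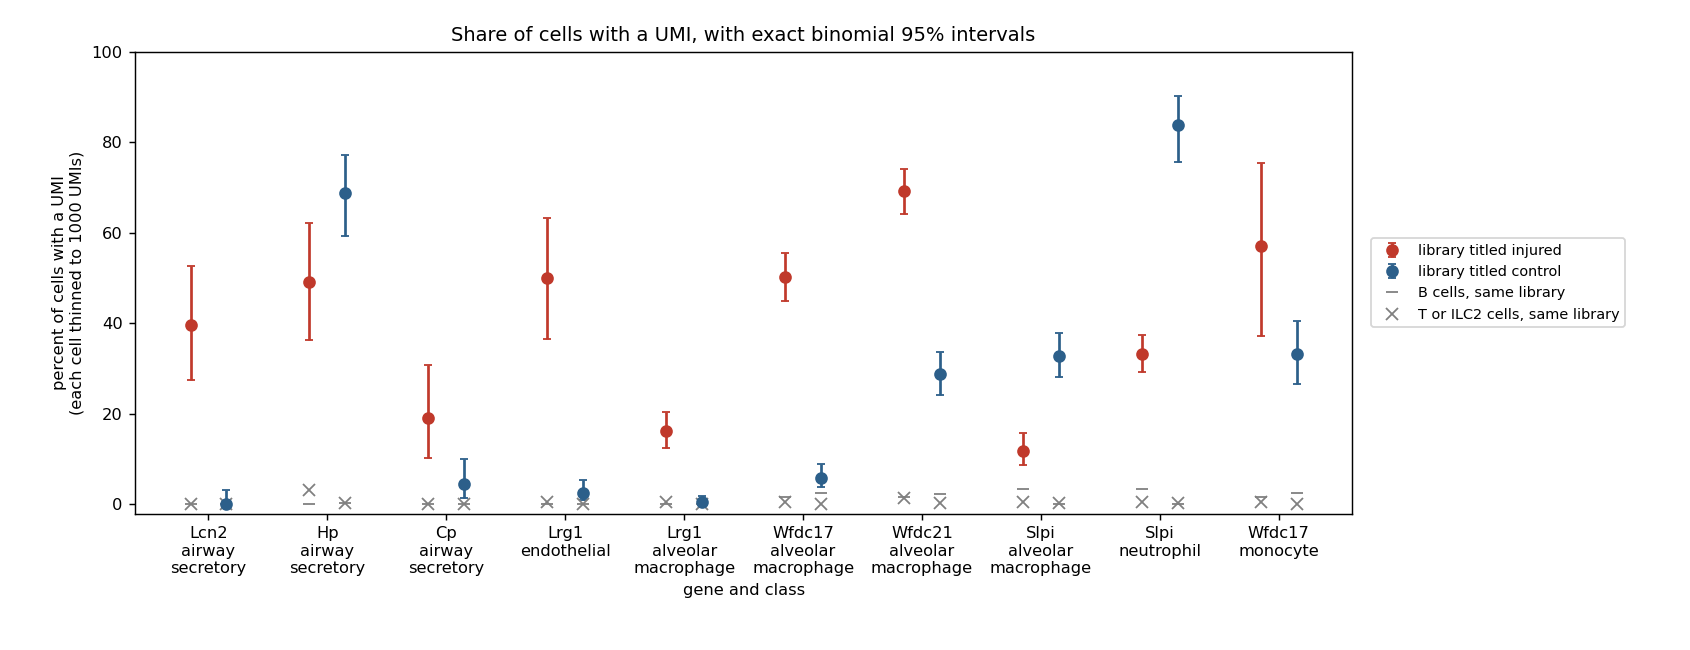
Percent of cells with a UMI of the gene after thinning every cell to 1000 UMIs, by gene and class, for the injured library (red) and the control library (blue), with exact binomial 95% intervals; dashes and crosses are B cells and T cells or ILC2 of the same library. Lrg1 was seen in 50% of injured and 2.56% of control endothelial cells, and Slpi in 33.3% of injured and 83.9% of control neutrophils.

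The monocyte class, with markers of nonclassical monocytes, held 28 injured and 201 control cells. All 5 members with enough counts were higher, where 14.7% of 4721 genes were higher and 18.4% lower. Wfdc17 was at 2006 CPM in injured and 621.9 CPM in control monocytes, a ratio of 3.23 (2.89 to 3.59). Slpi was at 231.0 and 81.2 CPM, a ratio of 2.85 (2.05 to 3.90), the opposite direction to neutrophils and alveolar macrophages. Wfdc21 had 47 counts in injured and 7 in control cells, a ratio of 45.2 (20.3 to 118.6), Hp was at 798.2 and 499.2 CPM, a ratio of 1.60 (1.36 to 1.87), and Saa3 had 72 counts against 0, of which 1 cell held 38. The injured class also carried more markers of other cells: alveolar macrophage markers summed to 5235 CPM in injured and 819.1 CPM in control monocytes, and neutrophil markers to 1690 and 570.1 CPM. Their part in these values was not tested. When each library was clustered alone, the class held 118 injured and 199 control cells, and the log2 ratio of Hp was -1.44 and that of Wfdc17 was 0.18.

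Mesothelial cells, ciliated cells and C1q macrophages were too few in the control library for ratios, and their levels are given alone. Saa3, at 859.1 CPM in 21 injured mesothelial cells, had 731 counts there and 0 in 9 control mesothelial cells, and 1 cell held 365 of the 731. Slpi was at 4383 and 3529 CPM in the same cells. Cp was at 283.2 CPM in injured and 37.7 CPM in control mesothelial cells and at 284.3 and 211.9 CPM in fibroblasts, a ratio of 1.34 (0.906 to 1.96) under the rule. In ciliated cells, with 17 injured and 11 control cells, Wfdc2 was at 6145 and 2920 CPM and Cp at 1274 and 17.0 CPM. C1q macrophages, with 352 injured and 9 control cells, had Wfdc17 at 1120 and 585.9 CPM.

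The order of classes differed by gene. In the injured library, Lcn2 was highest in airway secretory cells (1249 CPM) and neutrophils (1106 CPM), whose intervals overlap, and then in mesothelial cells (293.8 CPM). In the control library neutrophils (1287 CPM) led and alveolar epithelium (557.7 CPM) followed. Lrg1 was led by endothelial cells (979.2 CPM) and neutrophils (930.2 CPM) in the injured library and by neutrophils (935.0 CPM) in the control library, where the next class was at 61.2 CPM. The endothelial and neutrophil intervals of the injured library overlap. Saa3 was highest in mesothelial cells (859.1 CPM), then monocytes (291.7 CPM) and fibroblasts (187.4 CPM) of the injured library, the intervals of monocytes and fibroblasts overlapping, and its only control count was in a B cell. Hp was highest in airway secretory cells in the injured library by summed counts (4182 CPM), of which 8 cells held 86.4%. The median injured secretory cell was at 722.5 CPM of Hp and the median injured neutrophil at 858.7 CPM. In the control library it was at 2008 CPM in neutrophils and 1902 CPM in airway secretory cells, with overlapping intervals. Cp was led by airway secretory cells (542.4 CPM) in injured lung and by fibroblasts (211.9 CPM) in control lung, and Wfdc2 by airway secretory cells in both. Slpi was led by mesothelial cells (4383 CPM) in the injured and by neutrophils (3763 CPM) in the control library. Wfdc17 was led by monocytes (2006 CPM) and neutrophils (1941 CPM), whose intervals overlap, in the injured library and by neutrophils (1770 CPM) in the control library. Wfdc21 was led by alveolar macrophages (1509 CPM) in the injured and neutrophils (1108 CPM) in the control library. Classes with fewer than 20 cells in a library were left out of that order. Over 24 points, 1 per class and library, the genes whose log2 levels tracked the members most closely were Chil1 for Lcn2 (Pearson r 0.832), P2ry2 for Lrg1 (0.788), C1rl for Saa3 (0.841), Vill for Hp (0.773) and Creb3l1 for Cp (0.897). For the WAP genes they were Tiparp for Slpi (0.739), Smim22 for Wfdc2 (0.954), Pirb for Wfdc17 (0.957) and Fpr1 for Wfdc21 (0.92). The next closest were Mapk13 and Scnn1a for Lcn2, Adipor1 and Bnip3 for Lrg1, Vcan and Prg4 for Saa3, Lcn2 and Mapk13 for Hp, and Fmo2 and Aldh1a1 for Cp. For the WAP genes they were Tnfrsf23 and Sgms2 for Slpi, Tspan1 and Fxyd3 for Wfdc2, Alox5ap and Pira2 for Wfdc17, and Arsg and Fpr2 for Wfdc21. These points share 2 libraries and their depth, so r is a description.

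Related lists were counted over all cells, where 19.3% of all genes were higher and 14.2% lower. Of 13 other acute phase genes with enough counts, 11 were at least 1.5-fold higher in the injured library and none lower, with a median log2 ratio of 1.79 against 0.07 over all genes; Serpina3n was 10.8-fold and Lbp 4.93-fold higher. Of 19 other WAP and antiprotease genes, 12 were higher and 4 lower, with Timp1 40.3-fold higher and Wfdc10 5.27-fold lower. Of 23 inducing cytokines, receptors and factors, 6 were higher and 1 lower, with Osmr 4.83-fold higher; Il6 itself had 90 injured and 61 control counts, a ratio of 1.19. Of 20 receptors and binding partners, 4 were higher and 7 lower, and Cd163, the haptoglobin-haemoglobin receptor, had 58 injured and 12 control counts. Of 9 neutrophil granule genes 5 were higher and 1 lower, and of 17 iron and copper genes 11 were higher and none lower.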

How the data were processed

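Whole-lung digests of SP-C I73T mutant mice were read as 2 libraries of 10x Genomics 3′ reads. The deposited matrices hold raw UMI counts per gene and cell barcode, made with Cell Ranger 4.0.0 per the file headers; the filter on barcodes before deposit is not given in the sources used here. The submitters' processing notes name GRCm38 and, without saying for which step, DESeq2 (1.26.0 and 1.28.1), featureCounts 1.6.3 and STAR 2.7.2c.

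The 9 members and the gene lists were chosen with earlier results of these data known. Barcodes with under 500 UMIs or 200 genes, or over 15% mitochondrial UMIs, were removed, as were 44 predicted doublets per library. This left 19949454 UMIs in injured and 16094173 in control cells. Cells were clustered (2000 variable genes, 30 principal components, Leiden resolution 1; Python 3.11.15, leidenalg 0.10.2, scipy 1.17.1) without 153 list genes and named from markers into classes. UMIs were summed per class and library as CPM, with exact 95% intervals for counting error. A ratio counts as higher or lower past 1.5-fold with at least 50 counts over both libraries, in classes with at least 20 cells in each, and a count of 0 is bounded at 3 counts. The ratio and interval code was tested on simulated data.

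Text names all 9 members, for each the 3 genes with the closest log2(CPM + 10) pattern, and up to 4 genes of each list with the largest ratios plus genes with a role in the text. Alternatives were other filters, clusterings, scalings, cell weights and count minimums, and a subtraction of free RNA.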

Additional observations from a re-analysis of the deposited data

How the results depend on the processing

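No paired analysis was possible because each group had 1 library, so the shared replicate number pairs nothing and no replicate could be left out. Shares of cells were counted as moved in 22 of 36 recomputed values and as unchanged in 14. Levels were unchanged in 173 of 216 recomputed values and moved in 43. Among all 763 recomputed log2 ratios, 659 were unchanged, 100 moved and 4 reversed. Of 394 recomputed log2 ratios of members past the rule, 390 kept their direction and 383 were still past 1.5-fold. With a mitochondrial limit of 10%, Lcn2 in the alveolar epithelial class was at 1.0 in place of -1.39 and Hp at -1.02 in place of 2.53; with equal cell weights Lcn2 there was at 0.02; and with each library clustered alone Hp in monocytes was at -1.44 in place of 0.68. The cause was not tested. Of 224 recomputed counts of members past the rule, 197 were within 1.5 times the value reported. With a count minimum of 10 or none, 8 members in place of 5 were higher in airway secretory cells, 3 or 4 in place of 1 were higher and 1 in place of 0 lower in endothelial cells, 2 in place of 1 were lower in alveolar epithelium, and 2 in place of 1 were higher in neutrophils, since more members are then counted. In alveolar epithelium the count higher was 1 and the count lower 0 with the mitochondrial limit of 10%, the count higher was 4 under a gate on each cell, and the count lower was 2 with no minimum of genes and 3 under median-of-ratios size factors. The endothelial count lower was 1, which is Cp, with no minimum of genes, with doublets kept or under the gate. The neutrophil count higher was 2 with libraries clustered alone and 0 with equal weights, with free RNA subtracted or without the top cell, and the count lower was 1 at a ratio of 2. With free RNA subtracted, 3 members in place of 6 were higher in alveolar macrophages and 3 in place of 5 in monocytes, where Saa3, at 0 in control, gives no ratio by construction. Without the top cell the monocyte count was 3, and with libraries clustered alone 1 member was lower there. Depth limits the shallow control alveolar epithelium, and cell number limits the 28 injured monocytes.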

Other observations

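The injured B cell class held 1 cell with 655 Slpi UMIs, which is 7.06% of the Slpi counts of the injured library. The same cell had 7040 UMIs of Igha, 7951 of Igkc and 3288 of Jchain, genes of the immunoglobulin A heavy chain, the kappa light chain and the joining chain, among 39211 UMIs in all. In injured C1q macrophages 1 cell held 1027 of 1399 Slpi counts.

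A cluster that stayed unnamed had proliferation genes such as Mki67 and Top2a in the lead beside alveolar macrophage markers, and held 92 injured and 49 control cells. In it Wfdc17 was at 563.0 CPM in injured and 38.1 CPM in control cells, and Wfdc21 at 1255 and 370.8 CPM. Slpi was at 115.6 and 247.2 CPM there. Lrg1 was at 132.3 and 1.315 CPM in that cluster, from 254 counts in injured and 1 in control cells, a ratio of 100.6 (17.9 to 3989). Conventional dendritic cells had Wfdc17 at 515.9 CPM in injured and 364.1 CPM in control cells, a ratio of 1.42 (1.19 to 1.69), under the 1.5-fold rule.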
